A study of Mus musculus with 18 samples.

Results

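Expression of 10 genes of the Hippo pathway was followed in mouse embryonic stem cells (ESCs): the coactivators Yap1 and Wwtr1 (which encodes TAZ), their DNA-binding partners Tead1, Tead2 and Tead4, the kinase Lats2, the angiomotin genes Amot and Amotl2, and the target genes Cyr61 and Ctgf (now named Ccn1 and Ccn2). The genes were chosen by name and matched by Ensembl identifier, and they are 10 of the 53801 genes counted. All 10 passed the filter on low counts, as did 18469 genes in total, with counts of 10 to 9533 reads per library.

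RNA sequencing was performed on 18 libraries of polyA RNA, 3 for each of 6 groups. WT cells were the parental E14 ESC line, and iEZR_CA cells were a line derived from E14 with a PiggyBac transgene that expresses constitutively active ezrin, which ties cortical actin to the cell membrane, when doxycycline is added. Both lines were grown in 2i+LIF on gelatin (ESC, 0 h) and moved to N2B27 medium for 24 h (T24) or 48 h (T48), which starts the exit from naive pluripotency. Doxycycline was given to iEZR_CA cells from about 16 h before exit. The labels name no doxycycline for WT cells, so the transgene, the doxycycline and any other difference between the lines cannot be told apart.

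Reads on genes ran from 10940752 to 33276622 per library. Normalized counts of Ezr were 2.11-fold higher in iEZR_CA cells in ESCs, 2.70-fold at T24 and 1.61-fold at T48, with no overlap between the lines (exact permutation test, two-sided p = 0.1 at each stage, the smallest that 3 against 3 libraries allow), and the counts do not separate the transgene from the endogenous gene. Summed counts of 6 markers of pluripotent cells were 98320 to 99610 in WT and 85140 to 87050 in iEZR_CA ESCs, 48070 to 48850 and 61630 to 62720 at T24, and 16850 to 17890 and 23530 to 24900 at T48. The sums of iEZR_CA libraries were thus lower in ESCs and higher afterwards. Pou5f1 instead was also lower in iEZR_CA cells at T24 (means 18540 in WT and 13280) and at T48 (13130 and 10870). The other markers had higher means in iEZR_CA cells at both later stages. The part of these marker differences in the values below was not tested. The labels do not say whether the libraries came from separate cultures, while the study calls them biological replicates, and p-values measure the spread between these libraries.

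In the Hippo pathway, the kinases Mst1 and Mst2 activate Lats1 and Lats2, which phosphorylate YAP and TAZ and keep them out of the nucleus. In the nucleus, YAP and TAZ bind TEAD proteins and turn on target genes such as Cyr61 and Ctgf, whose products are secreted matrix proteins. Angiomotins bind YAP and actin and hold YAP in the cytoplasm, and the pathway responds to cell contact, cell shape and the actin cytoskeleton. In the early mouse embryo, TEAD4 with YAP specifies the trophectoderm, the outer layer that forms the placenta. The counts measure mRNA and hold no information on phosphorylation or on where YAP and TAZ are in the cell.

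Because TEAD proteins recognise a short core in DNA, promoters of the 10 genes were searched for it, and the sequences of 3 genes that hold the core, both coactivators and a target, are shown. RefSeq promoters (GRCm38.p6) were found for 7 of the genes, with 9 promoters in all; Tead1, Tead4 and Ctgf had none in the table. The core GGAATG or its reverse CATTCC was searched in the 250 bases before the start, on both strands, and is in capitals below. The Cyr61 promoter is chr3:145649986-145650235 (minus strand), with the core 103 bases before the start on the strand opposite to the gene. The Yap1 promoter is chr9:8004597-8004846 (minus strand), with the core 141 bases before the start. The Wwtr1 promoter is chr3:57575911-57576160 (minus strand), with the core 136 bases before the start. The lines give the 250 bases before each start, 5′ to 3′ on the strand of the gene.
Cyr61: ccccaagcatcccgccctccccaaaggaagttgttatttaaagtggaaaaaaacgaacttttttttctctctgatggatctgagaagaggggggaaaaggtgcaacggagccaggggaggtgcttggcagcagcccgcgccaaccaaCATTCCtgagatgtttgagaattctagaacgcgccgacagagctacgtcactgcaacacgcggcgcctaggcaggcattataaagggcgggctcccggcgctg
Yap1: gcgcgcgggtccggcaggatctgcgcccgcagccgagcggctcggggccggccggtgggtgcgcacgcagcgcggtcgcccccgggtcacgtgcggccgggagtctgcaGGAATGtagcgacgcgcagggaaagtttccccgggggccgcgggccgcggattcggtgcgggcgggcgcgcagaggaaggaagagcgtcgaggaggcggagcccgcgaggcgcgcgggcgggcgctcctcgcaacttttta
Wwtr1: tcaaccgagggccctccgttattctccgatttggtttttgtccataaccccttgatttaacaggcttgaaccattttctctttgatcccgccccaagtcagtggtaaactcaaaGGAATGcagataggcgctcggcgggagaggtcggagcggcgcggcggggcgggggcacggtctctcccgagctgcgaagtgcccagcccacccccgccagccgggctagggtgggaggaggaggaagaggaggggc

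A core was present in 5 of the 9 promoters, those of Cyr61, Yap1, Amotl2 (65 bases before the start) and both promoters of Wwtr1, which overlap and share 1 site. Over all 32851 mouse promoters of the same length, 12.6% hold the core. The promoters of Tead2, Lats2 and Amot did not hold these letters in this window. None of the 9 held a CArG box, the element bound by the serum response factor, which 1.47% of all promoters hold. A match is a description of the letters and no evidence of binding.

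Between the lines, the 10 genes did not move in one direction. In ESCs, 6 were higher in iEZR_CA cells and 2 lower (edgeR quasi-likelihood test, Benjamini-Hochberg adjusted p under 0.05 over all genes tested), where 26.4% of all genes tested were higher and 28.1% lower. At T24, 6 were higher and 3 lower, against 30.8% and 30.1% of all genes. At T48, 7 were higher and 3 lower, against 31.0% and 30.1%. More than 2-fold differences were found for 2 of the 10 genes in ESCs, 3 at T24 and 3 at T48, where 11.9%, 14.9% and 16.1% of all genes differed by as much. The median log2 fold change of the 10 genes was 0.21 in ESCs, 0.51 at T24 and 0.16 at T48, and that of all genes tested was -0.01, 0.00 and 0.00. Of the 10 genes, Cyr61 and Tead2 differed by more than 2-fold in ESCs, Cyr61, Tead2 and Tead4 at T24, and Tead2, Tead4 and Amot at T48.

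**Figure D1:**
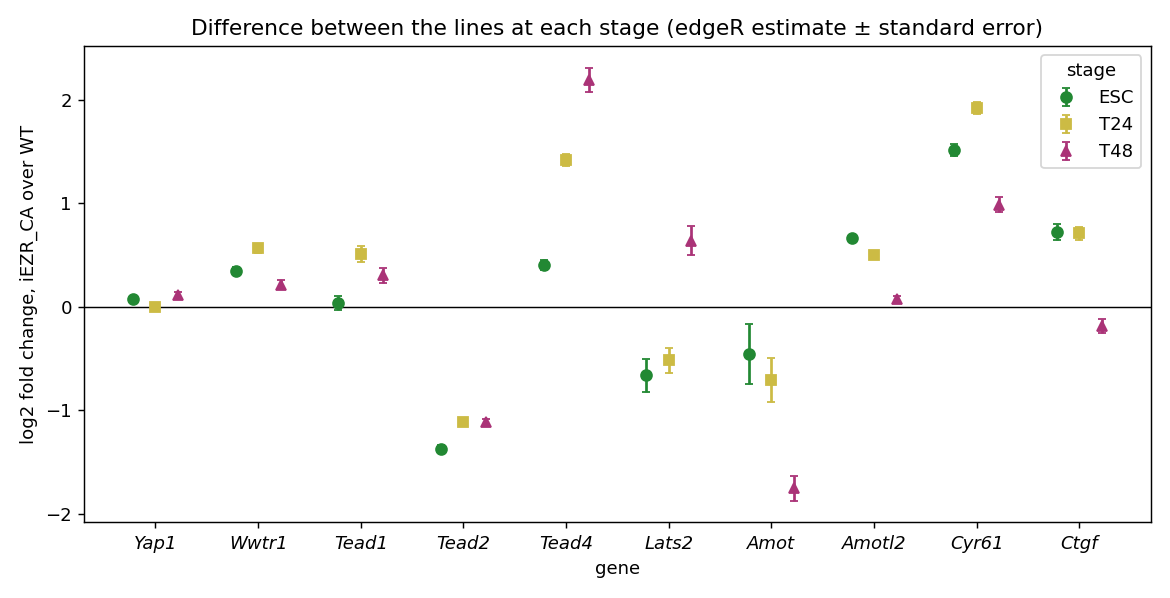
Log2 fold changes of iEZR_CA over WT cells (vertical axis) for the 10 genes at ESC (circles), T24 (squares) and T48 (triangles), with the standard error of the edgeR fit as bars. Cyr61 lies above 0 at the 3 stages (1.52, 1.92 and 0.98), Tead2 below it (-1.37, -1.12 and -1.12), Tead4 moves up from 0.40 to 2.19, and Lats2 passes from -0.66 to 0.64.

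Of the coactivators, Yap1 (ENSMUSG00000053110, GRCm38 chr9:7931999-8004596) differed little. Its normalized counts (read counts divided by the size factor of each library) in ESCs were 5038.5, 4732 and 4766 in WT and 5207, 5103 and 5086 in iEZR_CA libraries, which did not overlap but lay close together. The difference was 0.08 on the log2 scale (SE 0.03, adjusted p = 0.015, edgeR), and it no longer passed the test without WT ESC replicate 2 (0.06) or replicate 3 (0.07) or iEZR_CA ESC replicate 1 (0.07). At T24 the lines overlapped, with a log2 difference of 0.00 (SE 0.03, adjusted p = 0.93). At T48 the 3 iEZR_CA libraries (6446, 6296 and 6446) lay above the 3 WT libraries (6009, 5916 and 5887.5), by 0.11 (SE 0.03, adjusted p = 0.00026). With spike-in scaling neither call was kept, although the estimates were larger (0.13 in ESCs and 0.17 at T48, adjusted p = 0.48 and 0.31). With no filter the call in ESCs was lost (0.06, adjusted p = 0.29). Over the 6 groups, the mean of Yap1 spanned a factor of 1.32, the narrowest range of the 10 genes.

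Wwtr1 (ENSMUSG00000027803, chr3:57455649-57575910), the gene of TAZ, was higher in iEZR_CA cells at the 3 stages. Its counts in ESCs were 1857, 1840 and 1834 in WT and 2357.5, 2344 and 2384 in iEZR_CA libraries. By T24 the counts were 1206, 1200 and 1269 in WT against 1783, 1859 and 1759. At T48 they were 1017, 922 and 960 against 1112, 1156 and 1102. The lines did not overlap at any stage, and the log2 differences were 0.35 (SE 0.04, adjusted p = 6.1e-13), 0.56 (SE 0.04, adjusted p = 2.1e-20) and 0.21 (SE 0.04, adjusted p = 1.4e-05). With spike-in scaling the last did not pass the test (0.27, adjusted p = 0.085). Per exon length, Yap1 mRNA exceeded Wwtr1 mRNA in every group. The ratio of Yap1 to Wwtr1 was 1.36 ± 0.04 in WT (SD, n = 3) against 1.12 ± 0.02 in iEZR_CA ESCs, and it rose to 3.18 ± 0.13 and 2.94 ± 0.11 at T48.

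**Figure D2:**
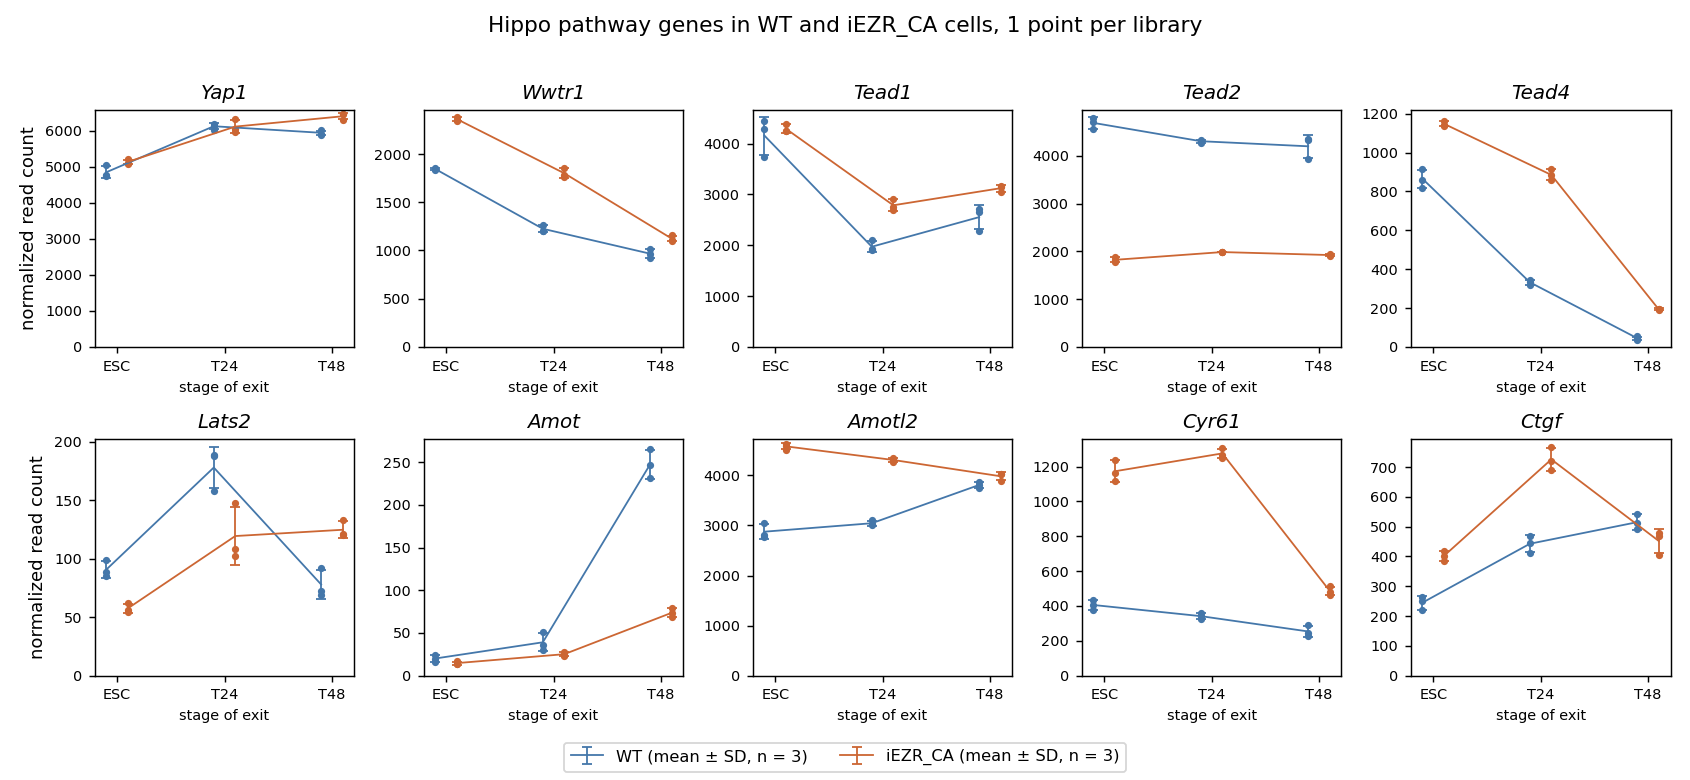
Normalized read counts (vertical axes, linear from 0) of the 10 genes at ESC, T24 and T48 in WT (blue) and iEZR_CA cells (orange), with 1 point per library, lines through group means and bars for the SD of 3 libraries. Cyr61 and Tead2 are apart between the lines at the 3 stages, while the curves of Lats2 and Ctgf cross between T24 and T48.

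The TEAD factors moved in opposite directions. Tead2 (ENSMUSG00000030796, chr7:45215753-45233644), the TEAD gene with the most reads per exon length in both lines, was lower in iEZR_CA cells throughout. In ESCs the counts were 4804, 4566 and 4711 in WT and 1884, 1773 and 1816 in iEZR_CA libraries. At T24 its counts came to 4339, 4315 and 4275 against 1984, 1981 and 1994, and at T48 they were 4332, 4350 and 3927.5 against 1950, 1920 and 1903. Every iEZR_CA library lay below every WT library, also across stages. The log2 difference was -1.37 in ESCs (SE 0.03, adjusted p = 1.1e-44), -1.12 at T24 (SE 0.03, adjusted p = 2.8e-40) and -1.12 at T48 (SE 0.03, adjusted p = 2.9e-40). The median log2 difference of 94 expressed genes (mean normalized count of at least 50) within 2.5 Mb of Tead2 was -0.19, -0.13 and -0.05 at the 3 stages.

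Tead4 (ENSMUSG00000030353, chr6:128224288-128300823), the factor of the trophectoderm, was higher in iEZR_CA cells, and by more at each later stage. ESC libraries had counts of 915, 861 and 820 in WT and 1144, 1137.5 and 1163 in iEZR_CA libraries. After 24 h they were 318, 344 and 336 against 915, 883 and 858. At T48 they were 43.3, 53.5 and 36.8 against 195, 197 and 188. The lines did not overlap at any stage, and Tead4 was 1.32-fold higher in ESCs (adjusted p = 8.4e-11). It was 2.67-fold higher at T24 (adjusted p = 5.0e-32), and 4.57-fold at T48 (adjusted p = 8.2e-26). At T48 the level in iEZR_CA cells was still below that of WT cells at T24, and in both lines Tead4 fell with exit.

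Tead1 (ENSMUSG00000055320, chr7:112679318-112906807) had counts of 4448.5, 4287 and 3736 in WT ESCs and 4247, 4240 and 4390 in iEZR_CA ESCs, which overlapped (log2 difference 0.04, SE 0.07, adjusted p = 0.66). It was higher in iEZR_CA cells at T24, by 0.51 (SE 0.07, adjusted p = 3.7e-05), and at T48, by 0.30 (SE 0.07, adjusted p = 0.0022). At T24 the counts were 1897, 1921 and 2095 in WT and 2758.5, 2912 and 2689 in iEZR_CA libraries, with no overlap. Tead3, the remaining TEAD gene, had mean counts of 119 to 345 over the groups and was lower in iEZR_CA cells at the 3 stages (log2 differences -0.50, -0.38 and -1.11, adjusted p = 3.4e-05, 0.00031 and 2.0e-18).

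Counted per exon length, Tead2 made up 63.2% ± 1.57 of the TEAD reads in WT (SD, n = 3) against 36.8% ± 0.83 in iEZR_CA ESCs. At T24 its share was 76.9% ± 0.848 in WT and 46.5% ± 0.772 in iEZR_CA cells. At T48 it was 77.7% ± 1.97 and 56.6% ± 0.444, with no overlap between the lines at any stage. Tead4 held 15.5% of the TEAD reads in WT ESCs against 30.9% in iEZR_CA ESCs, 7.89% against 27.6% at T24 and 1.09% against 7.58% at T48. In iEZR_CA ESCs, Tead1, Tead2 and Tead4 thus had shares of 30.6%, 36.8% and 30.9%, where Tead2 alone took 62.2% or more in each WT library. A share also moves with the other genes: that of Tead1 was 19.7% in WT ESCs, though its counts overlapped between the lines. The lengths take all annotated exon bases of a gene (13570 for Tead1 and 4788 for Tead2), and the shares depend on them.

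**Figure D3:**
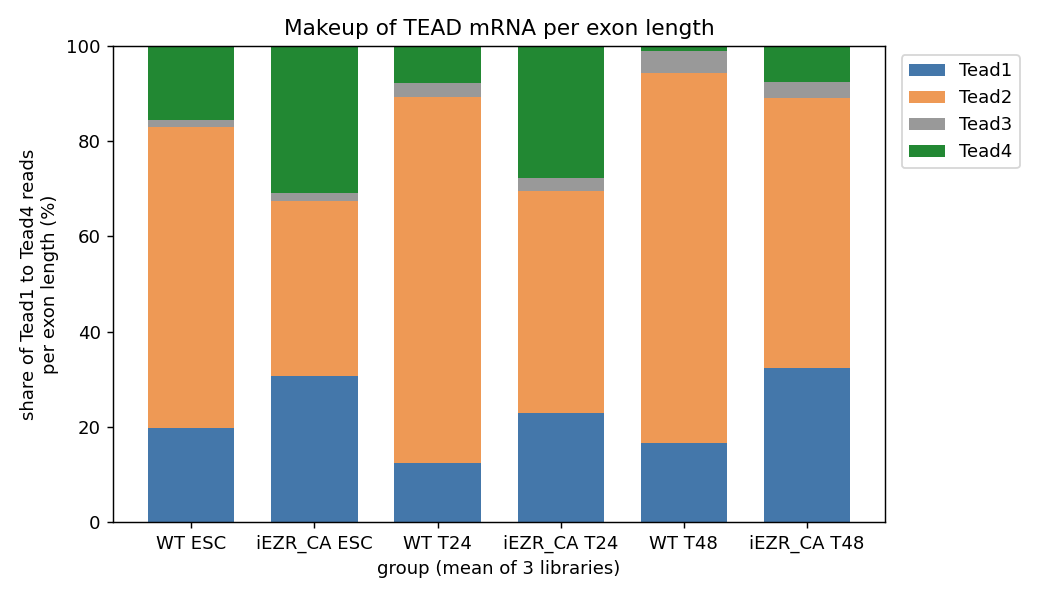
Share of each TEAD gene in the reads of Tead1 to Tead4 per exon length (vertical axis, %), as the mean of 3 libraries in each of the 6 groups. The Tead2 share is 63.2%, 76.9% and 77.7% in WT and 36.8%, 46.5% and 56.6% in iEZR_CA cells, and the Tead4 share is the larger in iEZR_CA cells at each stage.

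Because Tead4 and Yap1 act in the trophectoderm, markers of other early cell types are given beside these values. Summed counts of 6 trophectoderm markers were 224 to 235 in WT and 303 to 321 in iEZR_CA libraries in ESCs, 170 to 194 and 371 to 420 at T24, and 193 to 200 and 458 to 511 at T48. Among them Gata3, a transcription factor of this layer, had means of 28.1 against 138, 40.3 against 238 and 16.2 against 189. The higher sum in ESCs rested on Gata3, with the next largest rise that of Krt7 (22.7 against 40.3). Eomes, the marker with the most reads in WT ESCs, went the other way in ESCs, with means of 158 against 108. It had 131 against 136 at T24 and 107 against 237 at T48, while Cdx2 was at means of 0.644 to 19.3 in the 6 groups. Summed counts of 7 primitive endoderm markers were 236 to 262 in WT and 747 to 806 in iEZR_CA ESCs, 132 to 172 and 382 to 431 at T24, and 297 to 334 and 230 to 266 at T48. Of these markers Dab2, an endocytic adaptor, alone carried the higher sum in ESCs, with means of 45.2 and 631 in WT and iEZR_CA ESCs. The endoderm factors Gata4 (97.5 and 17.4), Sox17 (25.3 and 19.1) and Sox7 (7.97 and 1.30) had lower means in iEZR_CA ESCs, and Gata6 a higher one (32.4 and 61.5). The 6 fibroblast markers summed to 30.3 to 233 in ESCs and at T24 and to 272 to 323 in WT and 64.6 to 76.9 in iEZR_CA libraries at T48, with Postn at 0 in 5 of the 6 groups. In bulk RNA, a change in the share of cells of a type and a change in RNA per cell cannot be told apart, and the part of these cells in the TEAD values was not tested.

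Of the upstream genes, Lats2 (ENSMUSG00000021959, chr14:57689662-57758388), a kinase that inactivates YAP and TAZ, changed its direction between the lines. In ESCs its counts were 88.8, 84.9 and 98.8 in WT and 62.0, 56.1 and 54.6 in iEZR_CA libraries. T24 libraries had counts of 158, 189 and 188 against 108, 148 and 102. At T48 they were 72.6, 68.8 and 92.5 against 121, 120 and 133. The lines did not overlap, with iEZR_CA cells lower in ESCs (log2 difference -0.66, SE 0.16, adjusted p = 0.00023) and at T24 (-0.52, SE 0.12, adjusted p = 0.00012) and higher at T48 (0.64, SE 0.14, adjusted p = 3.8e-05). In WT cells Lats2 rose to T24 (0.93, SE 0.12, adjusted p = 6.6e-10) and fell again to T48 (-1.13, SE 0.13, adjusted p = 7.2e-12), while in iEZR_CA cells it rose to T24 (1.08, SE 0.15, adjusted p = 4.5e-09) and the difference from there to T48 was 0.02 (SE 0.12, adjusted p = 0.88), negative without any one of iEZR_CA T24 replicates 1 (-0.03) and 3 (-0.10) and T48 replicate 3 (-0.02).

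Lats2 lies in a stretch of chromosome 14 where most genes were lower in iEZR_CA cells. Of 50 expressed genes within 2.5 Mb of it, 45 were lower in ESCs, 44 at T24 and 42 at T48, with median log2 differences of -0.89, -0.93 and -0.92. Over the 426 expressed genes of the chromosome the medians were -0.29, -0.35 and -0.24. Set against its neighbours, Lats2 was higher by 0.23 in ESCs, 0.41 at T24 and 1.56 at T48, so the sign of the difference in ESCs and at T24 depends on whether the neighbours are subtracted. The part of this stretch in the Lats2 values was not tested. Of the exon bases of Lats2, 2955 of 6971 are shared with Gm49361, an overlapping model on the same strand with 0 reads in every library, and reads in the shared bases may be missing from the count.

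**Figure D4:**
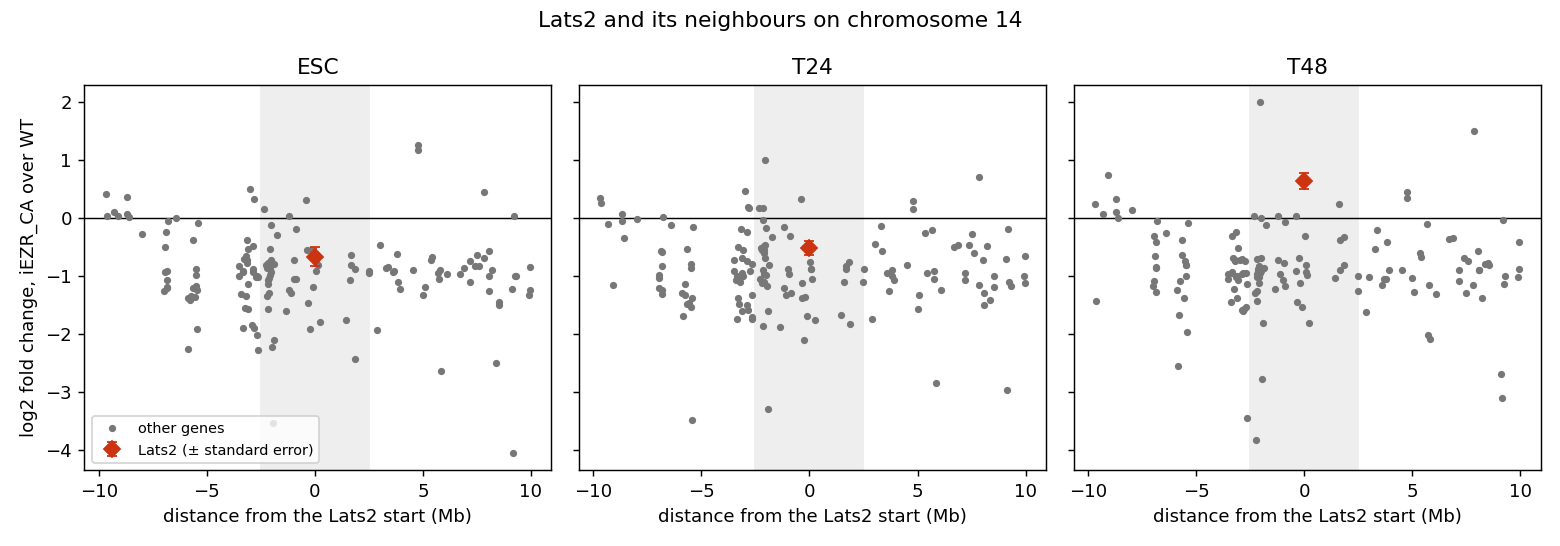
Log2 fold change of iEZR_CA over WT cells (vertical axis) for genes within 10 Mb of Lats2 on chromosome 14 against their distance from its start (Mb), at ESC, T24 and T48, with Lats2 as a diamond (bar: standard error) and the 2.5 Mb on either side shaded. Most neighbours lie near -1 at each stage (medians -0.89, -0.93 and -0.92 in the shaded part), while Lats2 moves from -0.66 to 0.64.

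Amot (ENSMUSG00000041688, chrX:145446425-145505181), which binds YAP and actin filaments, had few reads in ESCs and rose with exit. In ESCs its counts were 15.7, 19.9 and 24.7 in WT and 13.3, 16.7 and 14 in iEZR_CA libraries, which overlapped (log2 difference -0.46, SE 0.29, adjusted p = 0.17). At T24 the values were 50.9, 36.3 and 29.9 against 22.9, 28.1 and 24.4. At T48 they were 231, 247 and 265 against 68.6, 73.1 and 79.1, and Amot was far lower in iEZR_CA cells. The log2 difference was -1.75 at T48 (SE 0.12, adjusted p = 7.9e-21) and -0.71 at T24 (SE 0.21, adjusted p = 0.0029), where it was -0.39 (adjusted p = 0.20) without WT T24 replicate 1. From ESC to T48 Amot rose 11.9-fold in WT cells (adjusted p = 1.0e-31) and 4.86-fold in iEZR_CA cells (adjusted p = 6.8e-15).

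Amotl2 (ENSMUSG00000032531, chr9:102716672-102733418), an angiomotin that is itself a YAP target, went the other way in ESCs and at T24. Its counts in ESCs were 2812, 3052 and 2761 in WT and 4594, 4516 and 4628 in iEZR_CA libraries. At T24 they were 3026, 3105 and 3001 against 4339, 4309 and 4273, and at T48 they were 3749, 3877.5 and 3800 against 4036, 4022 and 3889. The log2 difference thus narrowed from 0.66 (SE 0.03, adjusted p = 4.4e-29) through 0.50 (SE 0.03, adjusted p = 4.9e-23) to 0.07 (SE 0.03, adjusted p = 0.032). The last no longer passed the test without WT T48 replicate 1 (0.05) or 3 (0.07) or iEZR_CA T48 replicate 1 (0.06) or 2 (0.06), nor with DESeq2 size factors (0.07, adjusted p = 0.051), spike-in scaling (0.12, adjusted p = 0.47), a minimum of 10 counts in every library (0.06, adjusted p = 0.074) or the DESeq2 test (0.07, adjusted p = 0.099). Per exon length Amotl2 was the third most abundant of the 10 genes in WT ESCs (FPKM 21.9) and the first in iEZR_CA ESCs (34.8), whereas Amot was the last in both (0.114 and 0.0835).

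Of the target genes, Cyr61 (ENSMUSG00000028195, chr3:145646976-145649981), whose promoter is printed above, was higher in iEZR_CA cells at the 3 stages. In ESCs its counts were 408, 434 and 375 in WT and 1164, 1115 and 1240 in iEZR_CA libraries. At T24 they were 323, 340 and 361 against 1252, 1306 and 1269. At T48 they were 228, 291 and 242 against 482, 465 and 513. Each iEZR_CA library was above each WT library, and even the T48 level in iEZR_CA cells was above that of WT ESCs. Cyr61 was 2.86-fold higher in ESCs (log2 SE 0.06, adjusted p = 5.2e-34), 3.79-fold at T24 (SE 0.06, adjusted p = 2.5e-39) and 1.98-fold at T48 (SE 0.07, adjusted p = 1.6e-19). By the size of the log2 difference it was among the top 7.04% of all genes tested in ESCs, the top 5.37% at T24 and the top 17.7% at T48.

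Ctgf (ENSMUSG00000019997, chr10:24595442-24598683), the other classical target, was higher in iEZR_CA cells in ESCs and at T24 and not at T48. In ESCs its counts were 265, 219 and 251 in WT and 419, 403 and 384 in iEZR_CA libraries. At T24 they were 470, 412 and 446 against 689, 720 and 768. At T48 they were 491, 511 and 544 against 406, 480 and 470, so that the iEZR_CA libraries lay below the WT libraries. The fold was 1.65 in ESCs (log2 SE 0.08, adjusted p = 2.4e-12) and 1.64 at T24 (SE 0.06, adjusted p = 1.7e-15). At T48 the log2 difference was -0.19 (SE 0.07, adjusted p = 0.013), and it was -0.14 without WT T48 replicate 3 and -0.12 without iEZR_CA T48 replicate 1, neither past the test. The call was also lost with the DESeq2 test (-0.19, adjusted p = 0.062), with no filter on low counts (-0.16, adjusted p = 0.063) and with spike-in scaling (-0.12, adjusted p = 0.54). An opposite-strand gene, Gm15270, shares 665 exon bases with Ctgf and had means of 1.45 to 8.41 counts, and whether counting used strand is not stated.

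Along exit, changes in WT cells fell on both sides. From ESC to T24, 5 of the 10 genes rose and 5 fell, where 31.8% of all genes tested rose and 33.6% fell. The rise of Amotl2 in this step was small (0.07, adjusted p = 0.048, edgeR) and was not kept in several alternatives given below. From T24 to T48, 4 rose and 4 fell, against 32.8% and 32.9%. From ESC to T48, 4 rose and 5 fell, against 37.1% and 37.4%. In iEZR_CA cells, 6 rose and 4 fell from ESC to T24 (27.1% and 28.9% of all genes), 2 rose and 5 fell from T24 to T48 (29.6% and 30.0%), and 5 rose and 5 fell from ESC to T48 (35.2% and 35.0%). Scaling to spike-in RNA instead of TMM moved log2 changes with time up by a median over the 10 genes of 0.10 to 0.26 and differences between the lines by 0.05 to 0.07, which turned the sign of some of the small changes with time.

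From ESC to T48, Tead4 fell by 4.35 on the log2 scale in WT cells (SE 0.09, adjusted p = 1.7e-50) and by 2.57 in iEZR_CA cells (SE 0.06, adjusted p = 6.8e-46). Wwtr1 fell by 0.93 in WT (SE 0.04, adjusted p = 1.4e-31) and by 1.07 in iEZR_CA cells (SE 0.04, adjusted p = 7.5e-36). Tead1 fell by 0.72 and 0.46 (SE 0.07 in each, adjusted p = 4.1e-07 and 3.8e-05), the latter -0.21 and not past the test with spike-in scaling (adjusted p = 0.15). Yap1 instead rose slightly in both lines, by 0.28 and 0.32 (SE 0.03 in each, adjusted p = 2.1e-14 and 1.8e-16). Tead4 had the widest range of the 10 genes, a factor of 25.8 between the highest and the lowest group mean.

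The targets did not follow each other with time. In WT cells Cyr61 fell from ESC to T48, by 0.74 (SE 0.07, adjusted p = 3.9e-14), while Ctgf rose, by 1.07 (SE 0.08, adjusted p = 7.0e-21). In iEZR_CA cells Cyr61 stayed high to T24, with a change of 0.13 (SE 0.05, adjusted p = 0.024) that did not pass without iEZR_CA ESC replicate 1 (0.12) or 2 (0.09) or T24 replicate 2 (0.11), and then fell by 1.40 (SE 0.06, adjusted p = 1.7e-33). Ctgf in iEZR_CA cells rose by 0.85 to T24 (SE 0.07, adjusted p = 3.9e-18) and fell by 0.69 from T24 to T48 (SE 0.06, adjusted p = 3.6e-15), where in WT cells it changed by 0.21 (SE 0.07, adjusted p = 0.0057; 0.15 without WT T24 replicate 2 and 0.16 without WT T48 replicate 3, neither past the test). Amotl2 rose in WT cells to T48 by 0.39 (SE 0.03, adjusted p = 4.9e-18) and fell in iEZR_CA cells by 0.20 (SE 0.03, adjusted p = 2.0e-08), a fall that became 0.05 upward with spike-in scaling.

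Whether the change with time differed between the lines was tested by the interaction of line and time, as in the design of the study. At T24 the log2 change from ESCs was more positive in iEZR_CA cells for 5 of the 10 genes and more negative for 1, where 21.5% and 16.9% of all genes tested were. At T48 it was so for 4 and 5 genes, against 25.7% and 20.0%. The T48 interaction was 1.79 for Tead4 (SE 0.13, adjusted p = 6.7e-19), 1.30 for Lats2 (SE 0.21, adjusted p = 2.3e-07) and -1.30 for Amot (SE 0.33, adjusted p = 0.00067). It was -0.53 for Cyr61 (SE 0.09, adjusted p = 2.3e-06), -0.91 for Ctgf (SE 0.10, adjusted p = 1.7e-11) and -0.59 for Amotl2 (SE 0.04, adjusted p = 6.1e-19). Of 14 further targets of YAP and TAZ tested, 8 had a more positive T48 interaction and 1 a more negative one (median 0.41), so the sign of these 3 targets was not that of the list.

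In FPKM, computed from counts and the exon length of each gene, the order of the 10 genes differed between the lines. In WT cells Tead2 was first at each stage (46.9, 43.0 and 42.0), followed by Yap1 (25.03, 31.6 and 30.7) and Amotl2 (21.9, 23.1 and 28.96). In iEZR_CA cells Tead2 was at 18.2, 19.8 and 19.2. Cyr61 was the seventh in WT ESCs (9.60) and the second in iEZR_CA ESCs (27.8), next to Yap1 (26.5). Lats2 and Amot were at 0.0835 to 1.41 in the 6 groups, below the other 8 genes except Tead4 in WT T48 cells (0.592). The FPKM of Lats2 may be too low, as reads in the exon bases shared with Gm49361 may be missing from its count.

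Across the 18 libraries, the genes with counts most like those of Cyr61 were Osbpl9 (Pearson r = 0.986 of log2 normalized counts among 12791 expressed genes), Fam198b (0.985) and Bmp4 (0.984), which encodes a secreted signalling protein. Bmp4 had means of 106, 80.5 and 43.7 in WT and 626, 656 and 107 in iEZR_CA cells at ESC, T24 and T48, alongside 405, 341 and 254 and 1173, 1276 and 487 for Cyr61. Those most like Ctgf were Ctnnal1 (0.938), Mboat2 (0.932) and Aplp2 (0.926), and those most like Yap1 were Trim44 (0.978), Tlk1 (0.973) and Smc1b (0.973). The libraries share 6 groups and these correlations follow the group means. Between the 10 genes themselves, Tead4 and Amot had r = -0.98 and Tead2 and Cyr61 r = -0.81, while Cyr61 and Ctgf had r = 0.33.

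Other genes of the pathway, from lists written with general knowledge, moved both ways. Of 18 Hippo kinases and upstream regulators, all tested, 10 were higher in iEZR_CA ESCs and 1 was lower. The counts were 11 and 5 at T24, and 9 and 5 in T48 cells (of all genes tested, 26.4% were higher and 28.1% lower in ESCs, 30.8% and 30.1% at T24, and 31.0% and 30.1% at T48), with median log2 differences of 0.16, 0.24 and 0.14. Wwc2, a scaffold that activates the kinases, was higher at the 3 stages (0.72, 0.69 and 1.02), with means of 3468 and 5757 counts in WT and iEZR_CA ESCs and 2155 and 4355 at T48 (adjusted p = 5.0e-32, 6.7e-31 and 3.2e-39). Frmd6, an upstream FERM-domain protein, had means of 344 and 716 at T24 (log2 difference 1.07, adjusted p = 2.8e-25). Fat1, an atypical cadherin with the most reads of the list, was higher by 0.79, 0.60 and 0.38 (adjusted p = 8.2e-05, 0.00065 and 0.012). The atypical cadherins Fat4 and Dchs1, a receptor and its ligand, were low in ESCs and rose in WT cells to means of 123 and 85.0 at T48, where iEZR_CA cells had 7.19 and 32.2 (log2 differences -4.12 and -1.38, adjusted p = 2.4e-11 and 2.7e-09).

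Of 9 partners of YAP and TEAD, 8 were tested, of which 2 were higher in iEZR_CA ESCs and 4 were lower, against 4 and 2 at T24 and 5 and 3 in T48 cells (medians -0.26, 0.49 and 0.31), where at each stage 26.4% to 31.0% of all genes were higher and 28.1% to 30.1% lower. Vgll4, which competes with YAP for TEAD, was higher at the 3 stages, with means of 401 and 1071 counts in WT and iEZR_CA ESCs, 144 and 613 at T24, and 109 and 250 at T48 (log2 differences 1.41, 2.10 and 1.24, adjusted p = 9.1e-32, 3.8e-35 and 1.5e-18). Vgll3, another cofactor of TEAD, was lower in ESCs (-0.72, adjusted p = 2.0e-06). It was higher at both later stages (1.21 and 0.88, adjusted p = 2.3e-12 and 1.1e-07). Vgll1 was at means of 2.05 to 14.1 in the 6 groups, with 5.97 and 14.1 at T48 (1.34, adjusted p = 0.0087). Ajuba, a LIM protein that binds and inhibits the LATS kinases, had the most reads of the list and was lower throughout, with means of 8743 and 4304 at T24 (log2 differences -0.64, -1.02 and -0.72, adjusted p = 3.5e-29, 2.9e-42 and 8.8e-34). Ajuba lies at -3.18 Mb from the start of Lats2, in the stretch of chromosome 14 where most genes were lower, and the part of that stretch in its values was not tested.

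Of 18 further targets of YAP and TAZ, 14 were tested. In iEZR_CA ESCs, 1 of them was higher and 7 lower, where Cyr61, Ctgf and Amotl2 were higher, and the same counts were 7 and 5 at T24 and 6 and 5 in T48 cells (median log2 differences -0.29, 0.18 and -0.01). Of all genes tested, 26.4% were higher and 28.1% lower in ESCs, and 30.8% to 31.0% and 30.1% at the later stages. Ankrd1, a target often read beside Cyr61 and Ctgf, did not pass the filter on low counts. Axl, a receptor tyrosine kinase, was the target higher in ESCs (means 39.7 and 56.1, log2 difference 0.49, adjusted p = 0.027), and at T24 the log2 difference was 1.19 (adjusted p = 8.0e-08). Arhgef17 was lower, with means of 1040 and 330 in ESCs (-1.68, adjusted p = 6.3e-27). Myof, a membrane protein, was lower in ESCs (3728 and 2580, -0.55, adjusted p = 2.0e-17), higher at T24 (1869 and 2939, 0.66, adjusted p = 5.9e-20) and higher at T48 (81.04 and 439, 2.43, adjusted p = 7.0e-29). Gadd45a, a stress response gene, had means of 1408 and 665.5 at T24 (-1.07, adjusted p = 2.2e-29).

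Of 15 genes of the serum response factor and of actin, which build or sense the cytoskeleton, 14 were tested, with 5 higher and 2 lower in ESCs of the iEZR_CA line, 3 and 10 at T24, and 4 and 7 in T48 cells (medians -0.01, -0.27 and -0.23), against 26.4% and 28.1% of all genes in ESCs, 30.8% and 30.1% at T24, and 31.0% and 30.1% at T48. The smooth muscle genes Acta2 and Cnn1 rose in WT cells to means of 61.4 and 215 at T48, where iEZR_CA cells had 3.82 and 21.3 (log2 differences -3.92 and -3.29, adjusted p = 2.0e-16 and 6.0e-28). Tpm1, a tropomyosin, was higher in ESCs (means 1489 and 3035, log2 difference 1.02, adjusted p = 1.2e-37). Actb, the most abundant of the list, was higher in ESCs by 0.27 (adjusted p = 2.8e-20) and lower at T24 (-0.24, adjusted p = 1.2e-17). Of the 4 other CCN genes, relatives of Cyr61 and Ctgf, 3 were tested and 0 were called in ESCs, 1 was higher at T24 and 3 were lower at T48 (edgeR). Nov had means of 35.2 and 49.5 at T24 (0.59, adjusted p = 0.0092) and 85.6 and 53.7 at T48 (-0.71, adjusted p = 9.3e-05), the same turn as Ctgf, and Wisp3 had 10.5 and 4.93 at T48 (-1.06, adjusted p = 0.042).

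**Figure D5:**
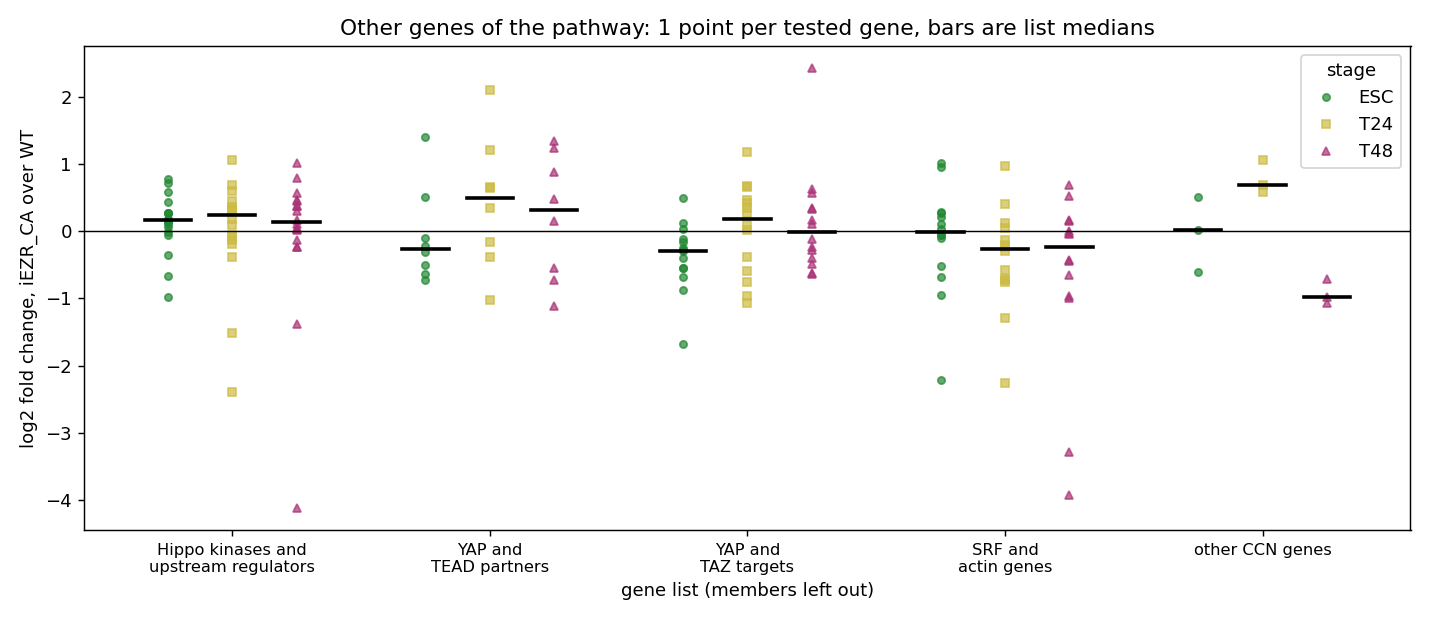
Log2 fold change of iEZR_CA over WT cells (vertical axis) for each tested gene of 5 lists of the pathway, without the 10 genes described above, at ESC (circles), T24 (squares) and T48 (triangles), with bars for the list medians. The medians lie between -0.29 and 0.49 except for the 3 CCN genes at T24 and T48, and each of the 4 larger lists holds genes on both sides of 0.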

How the data were processed

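PolyA RNA of 18 libraries in 6 groups of 3 was sequenced with paired-end reads. The deposited values are raw whole-number read counts per gene: the authors trimmed reads with Trim Galore 0.6.5, used GSNAP for alignment to mm10 (GRCm38), and obtained counts from HTSeq with an Ensembl annotation. Whether strand was used is not stated. Of each library, 74.9% to 77.9% of reads fell on genes, 21.3% to 24.3% were outside genes, unaligned or ambiguous (4.51% to 4.76% ambiguous), and 0.575% to 0.884% came from the 92 spike-in sequences. None of these entered library sizes or tests.

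Groups came from the labels, which give no replicate numbers, so replicates are numbered in accession order as names only. Genes were filtered with filterByExpr by group, scaled by TMM (factors 0.975 to 1.03) and tested with the robust quasi-likelihood test of edgeR 4.0.16 (R 4.3.3) in 1 model of the 6 groups with 12 residual degrees of freedom. Adjustment (Benjamini-Hochberg) was over all 18469 genes tested, with a threshold of 0.05. Standard errors were computed from the F statistic and the log2 fold change. The common biological coefficient of variation was 2.98%, so small changes can pass the test. Normalized counts used size factors of DESeq2 1.42.0, and FPKM and shares per length the exon bases of GENCODE M21 (GRCm38), in which 53706 of the gene identifiers were found. Ezr was compared by an exact permutation test. The script was tested on simulated data. The 18 pairs of libraries within groups differed by more than sampling noise (chi-square per degree of freedom 1.55 to 3.33).

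The 10 genes and the lists were chosen with earlier results of these data known. Besides the 10 genes, the text names of each list the genes called with an absolute log2 difference between the lines over 1 at any stage and the most abundant gene, and the 3 genes most correlated with Yap1, Cyr61 and Ctgf over genes with a mean count of at least 50. Bmp4 is named by that rule, but the rule does not set that mean counts are printed for it alone among the correlated genes. Ankrd1 was named after its values were seen. Alternatives were DESeq2 size factors, spike-in scaling, no filter or a minimum of 10 counts in every library, the DESeq2 test, the compared groups alone, an added fold threshold, subtraction of neighbours within 2.5 Mb, and leaving out each library.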

Additional observations from a re-analysis of the deposited data

Results flagged for a closer look

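The change from ESCs to T24 differed between the lines, by the interaction test of edgeR, for 6 of the 10 genes and for 38.3% of all genes tested. The interaction, in log2 units with positive values where the change was more positive in iEZR_CA cells, was 0.21 for Wwtr1, 0.47 for Tead1, 0.25 for Tead2, 1.02 for Tead4, -0.16 for Amotl2 and 0.41 for Cyr61. At T48 the test was passed by 9 of the 10 genes and by 45.8% of all genes tested. The T48 interaction was -0.14 for Wwtr1, 0.26 for Tead1, 0.25 for Tead2, 1.79 for Tead4, 1.30 for Lats2, -1.30 for Amot, -0.59 for Amotl2, -0.53 for Cyr61 and -0.91 for Ctgf. The values of Wwtr1 and Tead1 at T48 were close to the threshold. Wwtr1 (adjusted p = 0.042) did not pass without any one of WT ESC replicate 1, iEZR_CA ESC replicates 1 and 3, WT T48 replicate 1 and iEZR_CA T48 replicates 1 and 3 (-0.14 to -0.10). Tead1 (adjusted p = 0.043) did not pass in 10 of the 12 fits that left out 1 library, with 0.17 to 0.33 over the 12. Both genes were also refitted with other scalings, filters and tests and with the compared groups alone. Over all 18 refits, the call was kept in 9 for Wwtr1 and in 4 for Tead1. The T48 call of Tead2 was kept in 17, and those of Tead4, Lats2, Amot, Amotl2, Cyr61 and Ctgf in all 18.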

How the results depend on the processing

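With a log2 fold threshold of 1 added, the genes called fell from 8, 9 and 10 between the lines to 2, 3 and 3 at ESC, T24 and T48. They came to 3, 3 and 3 for the changes in WT cells (T24 against ESC, T48 against T24, T48 against ESC; 20.8%, 20.6% and 31.3% of all genes), 1, 3 and 5 in iEZR_CA cells (14.9%, 14.5% and 26.1%), and 1 and 3 for the interactions at T24 and T48 (8.50% and 13.3%). For spike-in scaling, the share of all genes called was not computed, so its counts cannot be set against all genes. Spike-in reads made up 0.874%, 0.575% and 0.643% of the reads of the iEZR_CA T48 libraries. With spike-in scaling, 6 genes were called between the lines at T48 (Yap1, Wwtr1, Amotl2 and Ctgf lost), 5 from ESC to T24 in iEZR_CA cells (Wwtr1, Tead2, Tead4, Amotl2 and Cyr61 lost) and 1 in the T24 interaction (Tead4). It also turned the sign of Yap1 between the lines at T24 (0.071) and from T24 to T48 in WT cells (0.079), of Tead2 in WT cells from T24 to T48 (0.084) and from ESC to T48 (0.083) and in iEZR_CA cells from T24 to T48 (0.06), of Lats2 in WT cells from ESC to T48 (0.063), of Amotl2 in iEZR_CA cells from ESC to T24 (0.058) and to T48 (0.053), and of Ctgf in the T24 interaction (0.017). Yap1 between the lines at T24 was 0.008 with no filter and 0.001 with the stricter filter, and the Ctgf interaction at T24 was 0.009 with no filter. Subtraction of the neighbours turned Lats2 to 0.23 in ESCs and 0.41 at T24. The cause was not tested in these cases.

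Leaving out 1 library gave ranges that crossed 0 for Tead1 between the lines in ESCs (-0.032 to 0.084), Yap1 at T24 (-0.025 to 0.014), Tead2 from T24 to T48 in WT cells (-0.068 to 0.011), Lats2 from T24 to T48 in iEZR_CA cells (-0.095 to 0.239), and the T24 interactions of Lats2 (-0.073 to 0.263), Amot (-0.412 to 0.066) and Ctgf (-0.066 to 0.076), and none of these 7 was called. Calls that leaving out 1 library ended, beside those named above, were Amotl2 from ESC to T24 in WT cells (0.07; 0.04 to 0.11), Amot from ESC to T24 in iEZR_CA cells (0.77; 0.66 to 0.91), and in iEZR_CA cells Yap1 from T24 to T48 (0.07; 0.05 to 0.09), Tead2 from ESC to T48 (0.08; 0.05 to 0.10) and Ctgf from ESC to T48 (0.16; 0.10 to 0.23). In edgeR, this Amotl2 call also ended with spike-in scaling (0.20, adjusted p = 0.18) and with no filter (0.06, adjusted p = 0.28). It ended as well with the compared groups alone (0.08, adjusted p = 0.068). No paired analysis was possible because the labels give no replicate numbers. Depth limits Amot and Lats2, with 10 to 324 and 36 to 245 reads per library.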
